A study of Mus musculus with 3 samples.

Results

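The miR-17~92 cluster is a group of 6 microRNA (miRNA) hairpins that mice make from 1 primary transcript, and it was examined here in exosomes, the small membrane vesicles that cells shed, from bone-marrow-derived macrophages. Its 9 strands were taken by name and are 9 of the 1915 mature miRNAs in the deposited tables. They are mmu-miR-17-5p, mmu-miR-17-3p, mmu-miR-18a-5p, mmu-miR-18a-3p, mmu-miR-19a-3p, mmu-miR-20a-5p, mmu-miR-20a-3p, mmu-miR-19b-3p and mmu-miR-92a-3p, written from here on without the species prefix. Strands with a gene copy number in their name were not members. All libraries belong to 1 group: macrophages of wild type C57BL/6 adult mice, grown from marrow for 24 h with M-CSF, a cytokine that turns marrow precursors into macrophages, and then in medium with serum freed of exosomes, from which vesicles were pelleted by ultracentrifugation after 72 h of culture. The stated aim was to profile the miRNAs of these exosomes. There were 3 libraries, called libraries 1, 2 and 3, and the labels do not say whether they came from separate animals or cultures. Spreads and p-values therefore hold for these libraries only, and the differences between them may be technical. Without parent cells or a treated group, no comparison between conditions could be made.

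A primary miRNA transcript is cut in the nucleus into hairpins and then in the cytoplasm into short duplexes, of which the guide strand is loaded into an Argonaute protein and the other strand is usually discarded. The guide finds messenger RNAs mainly through its seed, bases 2 to 8. The miR-17~92 transcript is activated by the transcription factor Myc and promotes growth and survival, in part by repressing the pro-apoptotic Bim and the cell-cycle inhibitor p21. In human monocyte precursors miR-17-5p and miR-20a repress the transcription factor RUNX1 and with it the M-CSF receptor, and they decline as monocytes mature.

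The mature sequences below are shown because strands are compared by seed in later paragraphs. They are the RefSeq sequences of build GRCm38.p6, which matched 9 of 9 members, with bases 2 to 8 in capitals.
miR-17-5p: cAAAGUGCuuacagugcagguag
miR-20a-5p: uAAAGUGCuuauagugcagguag
miR-18a-5p: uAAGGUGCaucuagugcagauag
miR-19a-3p: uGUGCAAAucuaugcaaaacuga
miR-19b-3p: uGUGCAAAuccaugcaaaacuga
miR-92a-3p: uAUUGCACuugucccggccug
miR-17-3p: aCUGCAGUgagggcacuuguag
miR-18a-3p: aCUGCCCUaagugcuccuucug
miR-20a-3p: aCUGCAUUacgagcacuuaaag

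The first 6 of these are the guides. With positions counted from 1 at the 5′ end, miR-17-5p and miR-20a-5p have 21 of 23 bases in common and differ by C1U and C12U, while miR-19a-3p and miR-19b-3p differ by U11C alone. The seeds of miR-17-5p and miR-18a-5p differ at 1 base, at position 4 (G4A from miR-18a-5p to miR-17-5p). Of the 6 guides, 5 begin with U, and miR-17-5p begins with C. How reads were divided between such near-identical strands was not stated in the labels or processing notes.

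All 6 hairpins lie on the plus strand of chromosome 14 in mm10 (GRCm38), within 836 bases from 115043671 to 115044506, and inside exon 2 of the noncoding host gene Mir17hg in the GENCODE annotation (115042879 to 115046727). From the 5′ end they are ordered Mir17, Mir18, Mir19a, Mir20a, Mir19b-1 and Mir92-1. The miR-17-5p strand spans chr14:115043684-115043706, miR-20a-5p chr14:115044183-115044205 and miR-92a-3p chr14:115044476-115044496. The sequence of miR-92a-3p is also encoded at chrX:52741854-52741874, and that of miR-19b-3p both at chr14:115044358-115044380 and at chrX:52741991-52742013, in the related miR-106a-363 cluster. For these strands the counts from both loci cannot be told apart.

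Counts summed over all mature miRNAs came to 3008995, 2489984 and 3208617 in libraries 1, 2 and 3, and levels are given as counts per 1000000 of these (CPM). Each miRNA read covers a whole mature strand, so no correction for length was made. A count of 0 allows up to 0.997, 1.20 and 0.935 CPM (3 counts), and intervals and floors cover counting error only, since reads carried no molecular identifiers that the labels mention. Of the 6 miRNAs chosen as macrophage and other myeloid markers, all had counts in every library, with 35.6, 52.6 and 33.0 CPM for miR-223-3p and 42.9, 1364 and 819 CPM for miR-142a-3p in libraries 1, 2 and 3. In the same order, the 4 erythroid markers summed to 90.4, 28.1 and 15.6 CPM, the stromal markers to 245, 139 and 134 CPM, the epithelial markers to 64.1, 433 and 265 CPM and the endothelial markers to 25.9, 44.6 and 25.2 CPM, while the liver marker miR-122-5p stood at 322, 548 and 1500 CPM. The lymphoid marker miR-150-5p had 0, 0 and 1 count. Library 1 stood apart in miR-21a-5p, also on the myeloid list, with 37316 CPM against 305278 and 261488 CPM in libraries 2 and 3. The list did not move as 1. MiR-155-5p had 74.8, 2388 and 829 CPM and miR-142a-5p 292, 818 and 390 CPM. MiR-146a-5p was nearly level at 33401, 35012 and 36543 CPM. Several results that rest on library 1 are given with and without it.

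Together the 9 strands took 6.43% (Wilson 95% interval 6.40 to 6.46), 2.04% (2.02 to 2.05) and 2.02% (2.01 to 2.04) of all miRNA counts in libraries 1, 2 and 3, a mean of 3.50% ± 2.54 (SD, n = 3). Libraries 2 and 3 were close and library 1 was far higher. Without library 1 the mean was 2.03%. In RNA from a vesicle pellet, more copies of the cluster's miRNAs and fewer copies of the rest cannot be told apart. Nearly the whole sum came from the 6 guides, which held 99.7%, 99.6% and 99.6% of the cluster's counts.

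The guides of this single transcript were very unequal. MiR-92a-3p, known for limiting vessel growth in endothelium, had 41594, 7098 and 14669 CPM and ranked 8, 20 and 12 among all miRNAs in libraries 1, 2 and 3. MiR-20a-5p, a repressor of p21 and of E2F transcription factors, had 15105, 7258 and 2977 CPM and ranked 17, 19 and 35. The first was highest in library 1 and lowest in library 2, whereas the second was highest in library 1 and lowest in library 3. MiR-17-5p, which shares its seed and targets with miR-20a-5p, had 6178, 2946 and 1071 CPM. MiR-19b-3p had 839, 2391 and 1162 CPM, and its relative miR-19a-3p had 307, 479 and 204 CPM. Both miR-19 strands were highest in library 2, the library in which miR-92a-3p was lowest. MiR-18a-5p, a repressor of the matrix gene Ctgf, was the scarcest guide at 111, 109 and 52.4 CPM, or 335, 271 and 168 counts. The ratio of miR-92a-3p to miR-18a-5p was 374, 65.2 and 280 in libraries 1, 2 and 3.

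**Figure D1:**
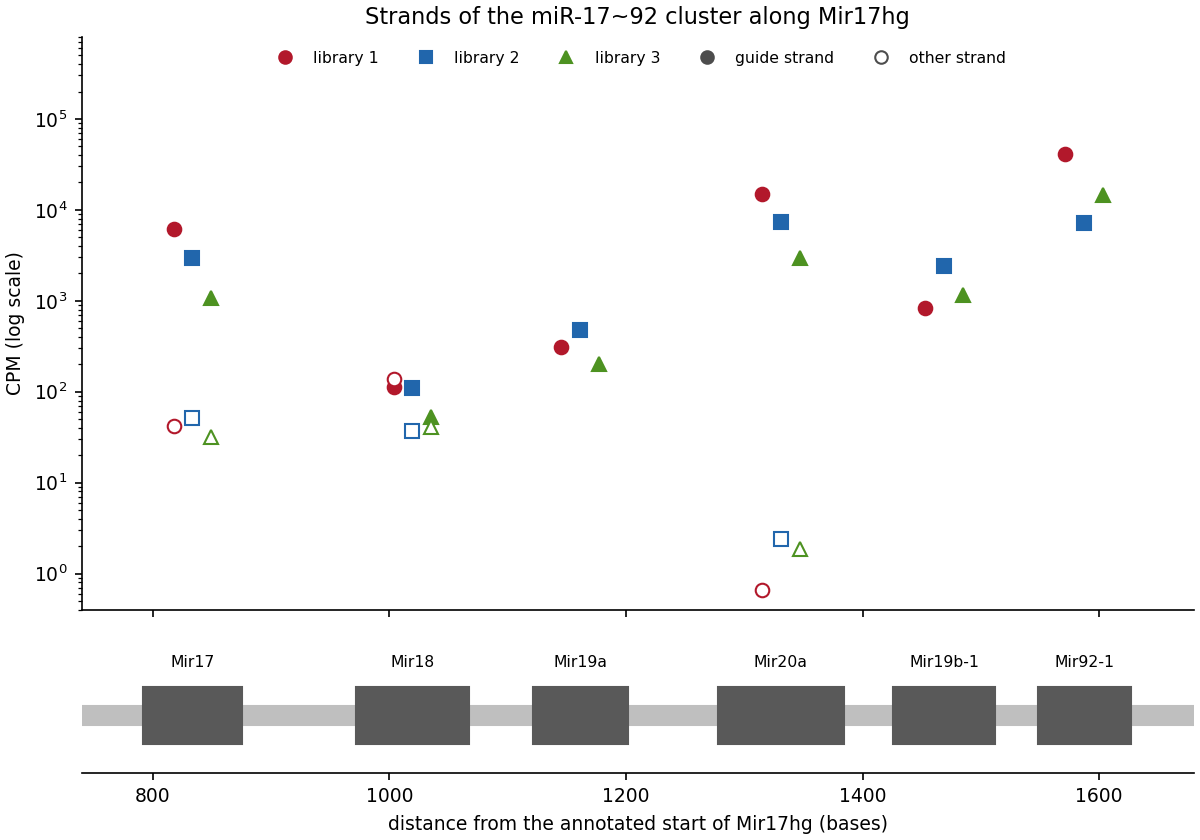
Levels of the 9 strands in CPM (log axis) above the position of their hairpins, in bases from the annotated start of Mir17hg, with 1 symbol for each library, filled for guides and open for the other strands. The guide highest by the mean, miR-92a-3p at 7098 to 41594 CPM, lies in the last hairpin. In library 2 miR-20a-5p was slightly above it. The lowest guide, miR-18a-5p at 52.4 to 111 CPM, lies in the second hairpin, and strand levels do not follow the order along the transcript.

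By the mean the order was miR-92a-3p (21120 ± 18130 CPM), miR-20a-5p (8447 ± 6151), miR-17-5p (3398 ± 2583), miR-19b-3p (1464 ± 819), miR-19a-3p (329.9 ± 139), miR-18a-5p (90.8 ± 33.4), miR-18a-3p (71.2 ± 56.6), miR-17-3p (41.7 ± 9.62) and miR-20a-3p (1.65 ± 0.893; SD, n = 3 each). These SDs are large because library 1 decided several means: without it miR-92a-3p averaged 10884, miR-20a-5p 5117, miR-17-5p 2008 and miR-18a-3p 38.5 CPM. Ratios taken within a library are free of scaling and show which neighbours in the order were apart. MiR-20a-5p was above miR-17-5p in every library by a log2 ratio of 1.36 ± 0.10, miR-19b-3p above miR-19a-3p by 2.09 ± 0.57, miR-19a-3p above miR-18a-5p by 1.85 ± 0.35 and miR-17-3p above miR-20a-3p by 4.83 ± 1.02 (SD, n = 3 each). The other 4 neighbouring pairs did not keep their order. MiR-92a-3p was above miR-20a-5p in libraries 1 and 3 but level with it in library 2, at log2 ratios of 1.46, -0.032 and 2.30. MiR-17-5p was far above miR-19b-3p in library 1 alone, at 2.88, 0.30 and -0.12, and the mean of 1.02 was 0.091 without library 1. MiR-18a-5p and miR-18a-3p crossed as well, at -0.29, 1.57 and 0.37, and so did miR-18a-3p and miR-17-3p, at 1.69, -0.48 and 0.35. With 3 libraries an exact two-sided sign-flip permutation test cannot go below p = 0.25, which the 4 steady neighbours reached (0.5 adjusted over 8 pairs).

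The proportions among strands of the 1 transcript differed between libraries. MiR-92a-3p made up 64.7%, 34.8% and 72.6% of the cluster's counts in libraries 1, 2 and 3, and miR-17-5p and miR-20a-5p together 33.1%, 50.1% and 20.0%. The pair of miR-19 strands made up 1.78%, 14.1% and 6.76%. Library 1 thus had the smallest miR-19 part, library 2 the largest miR-17-5p and miR-20a-5p part, and library 3 the largest miR-92a-3p part. Without library 2 the mean share of miR-19b-3p was 3.53% instead of 6.26%, and that of miR-19a-3p 0.742% instead of 1.28%.

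**Figure D2:**
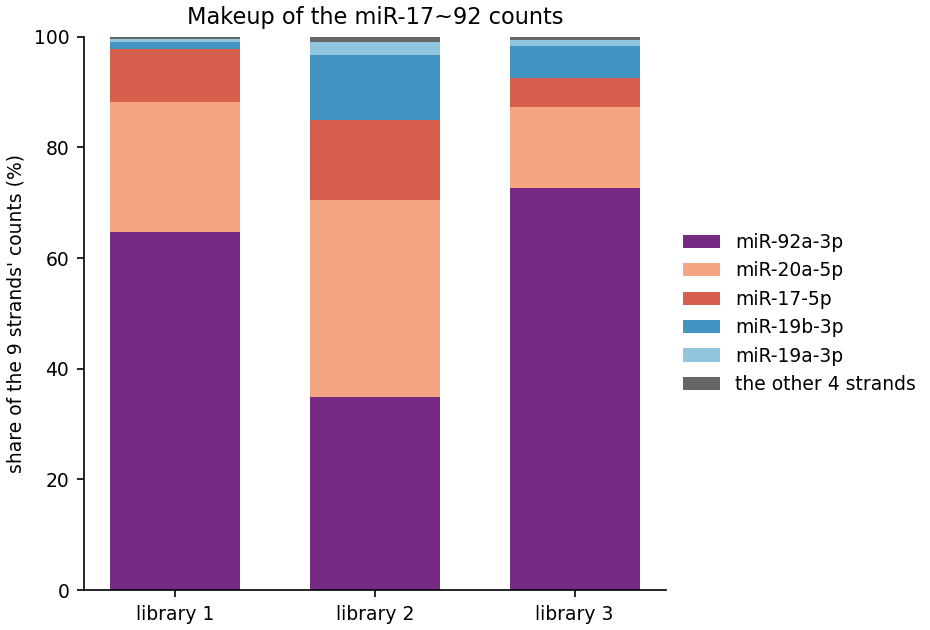
Share of the summed counts of the 9 strands (percent) that each strand held in libraries 1, 2 and 3, with the 4 scarcest strands joined. MiR-92a-3p took 64.7%, 34.8% and 72.6%, and the miR-19 strands were largest in library 2.

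Some pairs of guides kept a steady ratio and others did not. Over the 15 pairs of guides the SD of the log2 ratio across libraries ran from 0.10 to 2.03 with a median of 1.06, beside a median of 1.23 (quartiles 0.74 and 2.00) over all 8911 pairs of the 134 miRNAs that averaged 100 CPM or more. The 2 sets are not fully alike. Background pairs were taken on the log2(CPM + 1) scale and guide pairs from counts, and miR-18a-5p, with a mean of 90.8 CPM, lies below that minimum. The steadiest pair was miR-20a-5p and miR-17-5p, at ratios of 2.45, 2.46 and 2.78 in libraries 1, 2 and 3. Although miR-19b-3p lies in the hairpin next to miR-20a-5p, the ratio of miR-20a-5p to miR-19b-3p was 18.0, 3.04 and 2.56. By contrast, miR-20b-5p, made from chromosome X, shares the seed of miR-17-5p and differs from it by U10C and C12U, and the ratio of miR-17-5p to it was 148, 156 and 172. The SD of that log2 ratio was 0.11, near that of the pair on 1 transcript. But it rests on 126, 47 and 20 counts of miR-20b-5p in libraries 1, 2 and 3. With so few counts, counting error limits how far this SD can be compared with that of the far more abundant pair. Not every close relative was so steady. MiR-106a-5p, also of chromosome X, differs from miR-17-5p by U10A alone. The ratio of miR-17-5p to miR-106a-5p was 443, 489 and 859, with an SD of 0.52 on the log2 scale. It rests on 42, 15 and 4 counts of miR-106a-5p. MiR-93-5p, made from chromosome 5 and with the same seed, also followed, with miR-17-5p at 1.28, 1.83 and 1.63 times its level, whereas miR-92a-3p stood at 6.73, 2.41 and 13.7 times the level of miR-17-5p. These non-member pairs were chosen after their values were seen, and the part that read assignment between such similar strands has in them was not tested.

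MiR-92a-3p has a matching case on chromosome 3 in miR-92b-3p (610, 96 and 201 counts), which shares 19 of the 21 bases compared. The ratio of miR-92a-3p to miR-92b-3p was 205, 184 and 234, an SD of 0.17 on the log2 scale. Against miR-25-3p of chromosome 5, with 18 of 21 bases in common, it was 1.30, 1.16 and 2.79, so that this pair was less steady. Against miR-32-5p of chromosome 4, with the same seed and 11 of 21 bases in common, it was 90.7, 21.3 and 70.1. The SD of that log2 ratio was 1.11.

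Base composition moved with the differences between library 1 and library 2 among the guides. Of the guides, miR-19a-3p has 34.8% G and C bases, miR-19b-3p and miR-20a-5p 39.1%, miR-18a-5p 43.5%, miR-17-5p 47.8% and miR-92a-3p 57.1%. In this order, with miR-19b-3p before miR-20a-5p, the log2 ratio of library 1 over library 2 was -0.64, -1.51, 1.06, 0.033, 1.07 and 2.55. In this comparison the guide richest in G and C had the highest ratio and the miR-19 strands the lowest, but miR-20a-5p and miR-19b-3p, with equal G and C content, were at 1.06 and -1.51. For library 1 over library 3 the same guides, in the same order, were at 0.59, -0.47, 2.34, 1.09, 2.53 and 1.504, so that miR-92a-3p was below both miR-17-5p and miR-20a-5p and the order among the guides did not hold. Among the other strands, for library 1 over library 2, miR-17-3p and miR-18a-3p, both with 54.5% G and C, were at -0.27 and 1.90, and miR-20a-3p (40.9%), with 2 and 6 counts, was at -1.86. Over the 119 miRNAs that averaged 100 CPM or more and had a RefSeq sequence, G and C content was related to the ratio of library 1 over library 2, on the log2(CPM + 1) scale, with r = 0.58 (Pearson) and rho = 0.56 (Spearman). Without the members, r was 0.58 over 114 miRNAs. For library 1 over library 3 they were 0.50 and 0.49, and for library 2 over library 3 -0.062 and -0.043. These are descriptions across miRNAs that share the same libraries, chosen after the values were seen, and the part of base composition in the cluster's differences was not tested.

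**Figure D3:**
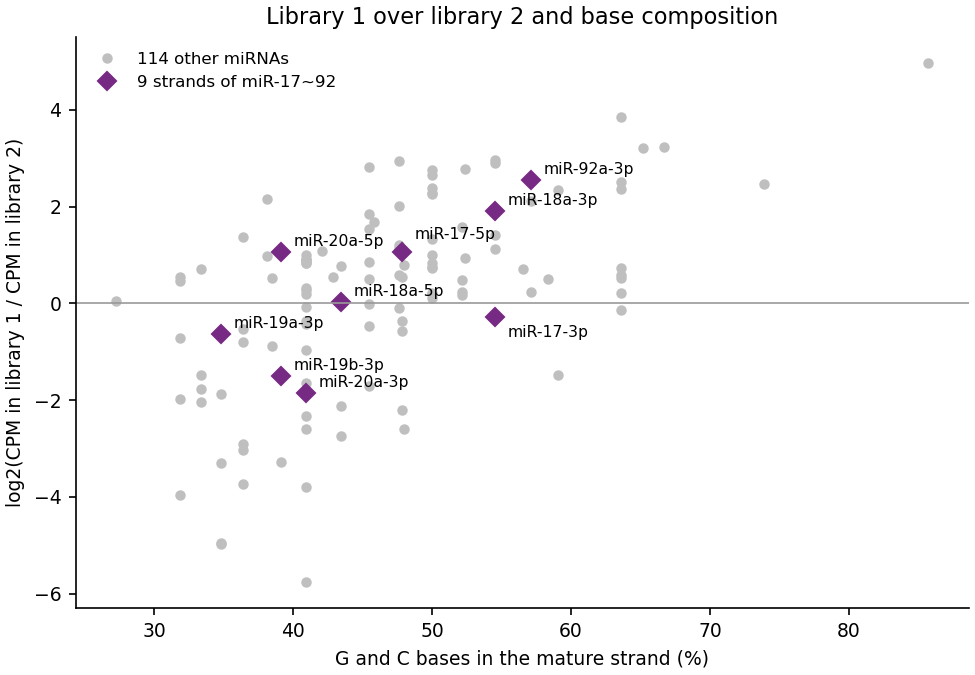
Log2 ratio of the level in library 1 over library 2 against the percentage of G and C bases in the mature strand, for the 9 cluster strands (diamonds) and 114 other miRNAs averaging 100 CPM or more (grey, on the log2(CPM + 1) scale). Among the guides miR-92a-3p is highest at 2.55 and miR-19b-3p lowest at -1.51, level in G and C with miR-20a-5p at 1.06.

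Among the 134 abundant miRNAs the median log2 ratio of library 1 over library 2 was 0.62, and over library 3 it was 0.96, so higher levels in library 1 were common. Relative to these medians the cluster's sum, at 1.66 and 1.67, was still higher in library 1, while its 9 strands had medians of 0.033 and 1.09. Without miR-92a-3p the sum was at 0.78 over library 2, near the median of all miRNAs, and at 2.04 over library 3. TMM scaling moved the medians of all miRNAs to 0.0050 and 0.098 and the cluster's sum to 1.04 and 0.81. The medians of the 9 strands were then -0.58 over library 2, with 4 of 9 higher in library 1, and 0.23 over library 3, with 5 of 9 higher. Of the 134 abundant miRNAs, 50% and 52.2% were higher in library 1, so these counts lie near the background. The 9 strands also include some below the minimum mean of 100 CPM used for that background. Under TMM and DESeq2 scaling alike, miR-18a-5p turned to lower in library 1 than in library 2, and miR-19a-3p and miR-17-3p to lower than in library 3. All 8 members with a summed count of at least 30 were called different between libraries by a chi-square test of counting error, with Benjamini-Hochberg adjustment over 353 miRNAs, but so were 90.1% of all miRNAs tested, so this count says nothing particular about the members. The 9th, miR-20a-3p, had 14 counts in all and was not tested.

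Both strands are members for 3 hairpins, and these behaved differently. MiR-20a had 45452, 18072 and 9551 counts of its 5p strand and 2, 6 and 6 counts of its 3p strand in libraries 1, 2 and 3. Its 3p share was 0.0044% (Wilson 95% interval 0.0012 to 0.016), 0.033% (0.015 to 0.072) and 0.063% (0.029 to 0.14). MiR-17 had 18589, 7336 and 3435 counts of its 5p strand and 127, 127 and 102 of its 3p strand, a 3p share of 0.68%, 1.70% and 2.88%. In both hairpins the 5p strand dominated in every library, and the 3p share was lowest in library 1, where the 5p strand was most abundant. The 3p strand of miR-17 had 42.2, 51.0 and 31.8 CPM, a narrower range than its 5p strand.

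MiR-18a was the exception, with 335, 271 and 168 counts of its 5p strand and 411, 91 and 130 of its 3p strand. The 3p share was 55.1% (51.5 to 58.6), 25.1% (20.9 to 29.9) and 43.6% (38.1 to 49.3), so the 3p strand was the more abundant of the pair in library 1 and the less abundant in libraries 2 and 3. The hairpins of miR-18a and miR-20a, which stand at the opposite ends of this comparison, are shown from their RefSeq entries on chromosome 14, plus strand, with both mature strands in capitals.
Mir18: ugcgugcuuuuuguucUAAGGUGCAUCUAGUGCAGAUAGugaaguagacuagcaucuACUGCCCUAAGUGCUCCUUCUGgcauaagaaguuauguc
Mir20a: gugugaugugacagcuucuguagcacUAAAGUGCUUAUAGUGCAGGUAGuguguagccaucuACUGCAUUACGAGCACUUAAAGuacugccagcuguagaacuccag

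In edgeR's quasi-likelihood test with library and arm as terms, fitted over 157 hairpins with Benjamini-Hochberg adjustment, the 5p strand was higher for miR-20a (log2 ratio 12.02, adjusted p = 7.0e-19) and for miR-17 (6.03, adjusted p = 1.5e-08). In the same test the 3p strand of miR-19a, whose 5p strand is not a member, was higher (adjusted p = 2.7e-12), with a fitted ratio that depends on the prior count because the 5p strand had 1, 0 and 0 counts. For miR-18a the ratio was 0.54 with an adjusted p of 0.59, and its log2 ratios of -0.29, 1.57 and 0.37 in libraries 1, 2 and 3 lay on both sides of 0. Of all hairpins tested 80.3% had a higher strand by this test, with the 5p strand higher in 41.4% and the 3p strand in 38.9%, so the call of 3 of these 4 hairpins lies near the background. The median size of the log2 ratio over all 157 hairpins was 6.24, and from the most to the least uneven miR-20a ranked 12, miR-17 83 and miR-18a 147. Without library 1 the ratio of miR-18a was 0.97 (adjusted p = 0.11), and without library 2 it was 0.036.

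**Figure D4:**
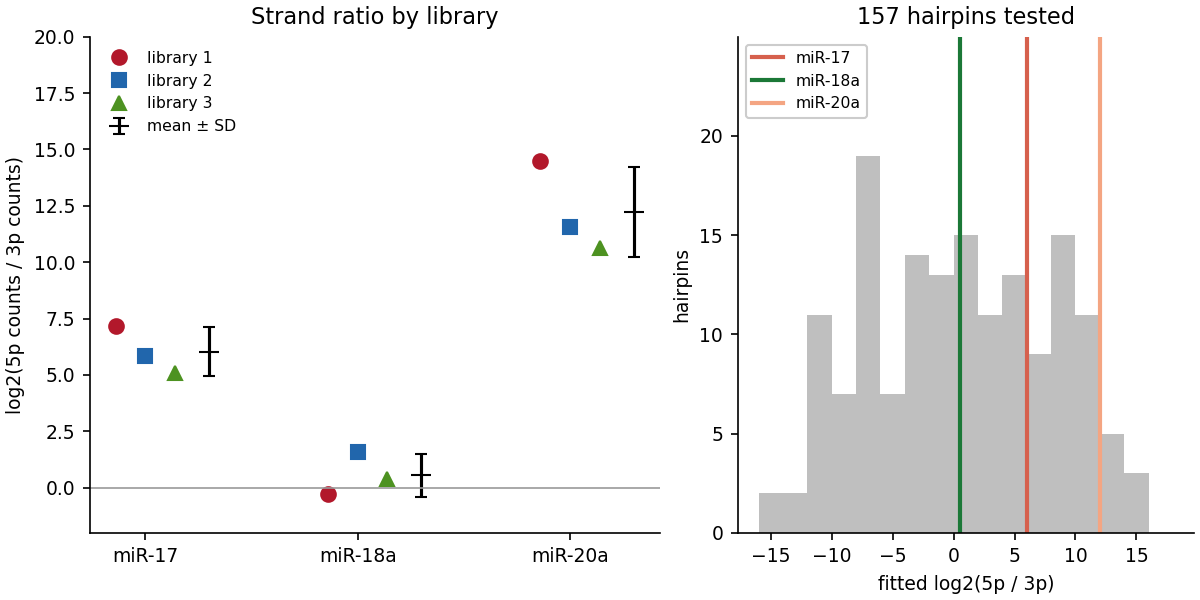
Left, log2 ratio of 5p to 3p counts of miR-17, miR-18a and miR-20a in each library, with mean and SD (n = 3); right, fitted log2 ratios of all 157 hairpins tested (grey bars, hairpins per bin of log2 ratio) with the 3 hairpins as lines at 6.03, 0.54 and 12.02. MiR-18a sits near 0, with library 1 below it.

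The remaining hairpins have 5p strands that were not members, and these were close to absent. MiR-19a-5p had 1, 0 and 0 counts in libraries 1, 2 and 3. MiR-19b-1-5p had 1, 0 and 9 counts, and miR-92a-1-5p had 26, 7 and 4. The largest measured share of the counts of both strands was 0.24%, for miR-19b in library 3. For miR-19a, the 0 counts in library 3 allow a 5p share of up to 0.459%. The corresponding strands of the X-linked copies, miR-19b-2-5p and miR-92a-2-5p, had 0 counts in all libraries.

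The cluster has relatives with the same seeds in the miR-106a-363 cluster on chromosome X and the miR-106b-25 cluster on chromosome 5. The 9 strands of miR-17~92 summed to 193520, 50724 and 64842 counts, against 170, 63 and 26 counts for the 10 strands listed for miR-106a-363 in libraries 1, 2 and 3. The larger sums include miR-19b-3p and miR-92a-3p, which both clusters encode, and without these they were 65840, 27096 and 14045 counts, still far above miR-106a-363 in every library. Of those 10 strands 7 had no count in any library. Those with counts were miR-20b-5p (126, 47 and 20 counts), miR-106a-5p (42, 15 and 4) and miR-363-3p (2, 1 and 2). Both miR-20b-5p and miR-106a-5p are within 3 bases of miR-17-5p and miR-20a-5p, and like these they were highest in library 1 and lowest in library 3. The 6 strands of miR-106b-25 summed to 38152, 8618 and 7234 CPM, so that the 9 strands of miR-17~92 stood at 1.69, 2.36 and 2.79 times their level. Without miR-19b-3p and miR-92a-3p this order held in library 2 alone, with 65840, 27096 and 14045 counts for miR-17~92, against 114799, 21459 and 23210 counts for miR-106b-25. That sets a part of miR-17~92 against the whole of miR-106b-25. The latter keeps 96240, 15208 and 16869 counts of miR-25-3p, which has the seed of miR-92a-3p.

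By seed, the members held most of the counts of their 4 families, but to different degrees. For miR-19b-3p and miR-92a-3p these counts include any from chromosome X, so they are shares of sequences and not of this transcript. MiR-17-5p and miR-20a-5p held 80.4%, 84.8% and 84.6% of the counts with the seed AAAGUGC in libraries 1, 2 and 3, a mean of 83.3% ± 2.44 (SD, n = 3). Without library 1 that mean was 84.7%. MiR-93-5p was the largest other holder, at 4825, 1606 and 658 CPM, followed by miR-106b-5p at 292, 200 and 73.6 CPM. For the seed AUUGCAC, miR-92a-3p held 56.0%, 52.3% and 72.6%, a mean of 60.3% ± 10.8 (SD, n = 3), and miR-25-3p most of the rest, at 31984, 6108 and 5257 CPM. Without library 1 the mean share of miR-92a-3p was 62.5%. Other holders were miR-32-5p at 459, 333 and 209 CPM and miR-92b-3p at 203, 38.6 and 62.6 CPM. The seeds of miR-19 (GUGCAAA) and miR-18a-5p (AAGGUGC) were held by members alone among the names matched. Here miR-18b-5p, the only other matched miRNA with the miR-18a-5p seed, had 0 counts in every library. The families with the AAAGUGC and AUUGCAC seeds took 1.44% ± 1.10 and 3.60% ± 3.33 of all miRNA counts (SD, n = 3 each), against 0.179% ± 0.0938 for miR-19 and 0.0091% ± 0.0033 for miR-18a-5p. The means of the AAAGUGC and AUUGCAC families rest largely on library 1. In libraries 1, 2 and 3 the first took 2.65%, 1.20% and 0.479% and the second 7.42%, 1.36% and 2.02%.

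**Figure D5:**
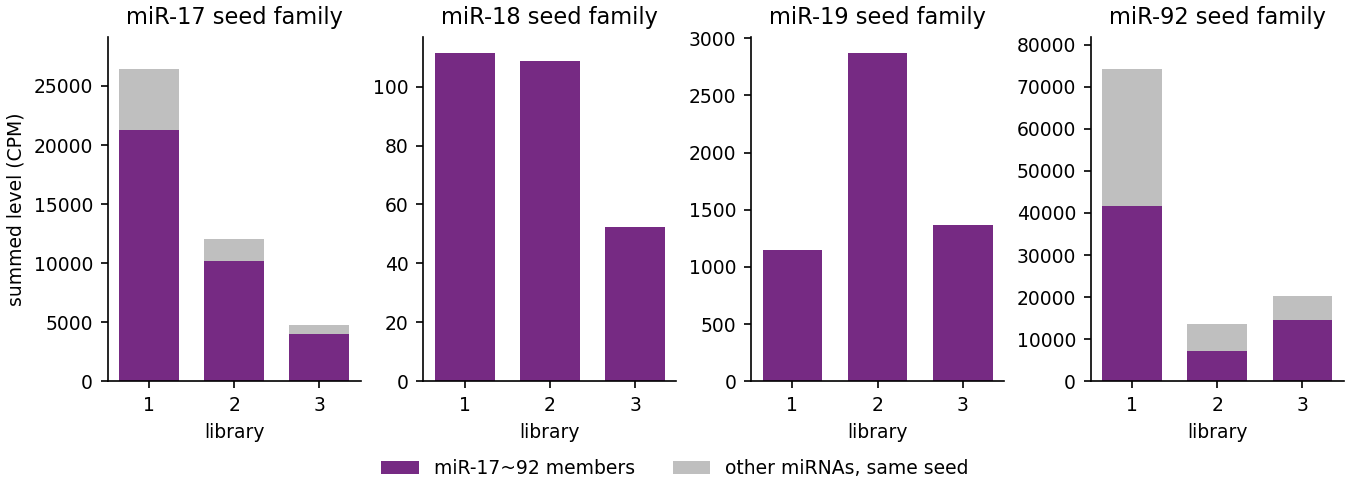
Summed level (CPM, with a separate axis for each family) of all miRNAs with the seed of miR-17-5p, miR-18a-5p, miR-19 and miR-92a-3p in libraries 1, 2 and 3, divided into cluster members (purple) and other miRNAs (grey). Members held 80.4% to 84.8% of the miR-17 seed counts and 52.3% to 72.6% of the miR-92 seed counts, and the miR-19 family alone was highest in library 2.

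The non-members whose levels were nearest in pattern to the cluster's sum over the 3 libraries were miR-501-3p, miR-30d-5p and miR-99a-5p, the last the most abundant miRNA of library 1. Likeness was the Euclidean distance between centred log2(CPM + 1) profiles, which was 0.23, 0.29 and 0.32 for these, beside a median of 1.24 over 129 candidates. Of the cluster's own strands, miR-18a-3p lay at 0.16 from the sum, and the other 8 ranged from 0.81 for miR-92a-3p to 2.29 for miR-19b-3p. Chosen after the values were seen, the nearest profile to miR-20a-5p was that of miR-30e-5p (3661, 1829 and 732 CPM; distance 0.041). The nearest to miR-19b-3p was that of miR-142a-5p (292, 818 and 390 CPM; distance 0.039), a miRNA of blood cells. Profiles over 3 libraries have few ways to differ, so these distances are given as a description.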

How the data were processed

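Small RNA libraries (NEBNext kit, single-end reads of 50 bases, Illumina HiSeq) were made from exosome RNA, per the labels' protocols. The submitters' processing notes name bcl2fastq, BWA and mm10; the annotation release, allowed mismatches and handling of multiply matching reads are not given in the sources used here. For every mature miRNA the deposited tables hold a raw whole-number count, used in all tests. They also hold the authors' RPM, whose implied denominators were 14047692, 13995845 and 14002577, used as an alternative. Counts were scaled to each library's miRNA total (CPM).

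Strands were compared with edgeR 4.0.16 (quasi-likelihood test, library sizes equal to miRNA totals, summed count of at least 60; 157 of 749 hairpins with both arms under 1 name) and, as an alternative, DESeq2 1.42.0. Libraries were compared by chi-square (summed count of at least 30), neighbours by an exact sign-flip test. An adjusted p below 0.05 was called. On simulated data for 154 hairpins the arm test called 90% of 16-fold, 15% of 4-fold and 0% of 2-fold ratios and 0 of 94 unchanged ones; for 353 miRNAs the chi-square called 64.5% of 1.5-fold changes and 2 of 153 unchanged. The members, lists, tests and alternatives were chosen with earlier results of these data known. Named non-members are other arms of the cluster, its paralogues (the 10 arms of miR-106a-363 and 6 of miR-106b-25), miRNAs with a guide's seed, markers and the 3 profiles nearest to the sum; the paralogue ratios, the relation to G and C content and the profiles nearest to single members were chosen after values were seen. RefSeq sequences matched 1623 of 1915 names, so seed families cover matched names only.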

Additional observations from a re-analysis of the deposited data

How the results depend on the processing

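The strand calls of miR-17, miR-19a and miR-20a and the absence of a call for miR-18a held in every alternative run (DESeq2, other count minimums, each library left out). On simulated data the arm test called 0% of 2-fold and 15% of 4-fold ratios. All simulated hairpins shared a common dispersion, so these rates are not those of miR-18a at its own counts and spread. The absence of a call for miR-18a does not show that its strands were equal. Without the replicate block, that is with arm as the only term, the log2 ratios were 6.35, 0.35 and 12.30 for miR-17, miR-18a and miR-20a, with 126 hairpins called as before. Several mean log2 ratios rested on 1 library: without library 1, miR-17-5p to miR-19b-3p was 0.091 instead of 1.02 and miR-18a-3p to miR-17-3p -0.065 instead of 0.52, and without library 2, miR-18a-5p to miR-18a-3p was 0.037 instead of 0.55. Levels depend on the denominator: with the authors' RPM the 9 strands summed to 0.734% instead of 3.50%, and without miR-19b-3p and miR-92a-3p, which have copies on chromosome X, to 1.24%. Leaving out a library gave 2.03% to 4.23%. The chi-square test called 168 of 171 miRNAs at a summed count of at least 300, where fewer were tested, and 177 to 284 with a library left out. Of 8 members tested, 7 were called without library 1 (not miR-18a-3p), beside 61.5% of all 288 miRNAs tested, and 6 without library 3 (not miR-17-3p and miR-18a-5p), beside 87.5% of 319. With no count minimum 8 of 9 were called (not miR-20a-3p), beside 41.8% of 886. The log2 ratio of library 1 over library 2 of miR-18a-5p, 0.033, turned to -0.58 (TMM), -0.62 (DESeq2 size factors) and -0.44 (total without miR-21a-5p). That of library 1 over library 3 turned for miR-17-3p, 0.41, to -0.45 and -0.47, and for miR-19a-3p, 0.59, to -0.27 and -0.29, with TMM and DESeq2 size factors; the cause was not tested. Depth limits miR-20a-3p and the 5p strands of miR-19a, miR-19b and miR-92a, each with under 30 counts in any library.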
